A study of Saccharomyces cerevisiae with 2 samples.

Results

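The 45 genes described here encode the RNA decay and surveillance machinery of budding yeast, Saccharomyces cerevisiae. They were chosen by function from a table of 7127 features. The rule uses no measured values, but members and classes were set with earlier results of these data known. They cover the exosome core (10 genes), the nuclear exosome factors (3), TRAMP (5), the NRD1 complex (3), the 5' exonucleases with RAI1 (3), RNT1, the SKI complex (4), decapping (6), nonsense-mediated decay (3) and deadenylation (7). For the comparison of compartments, 14 genes were counted as nuclear, 21 as cytoplasmic, and the 10 genes of the exosome core, which works in both, were kept as a class of their own. The data are RNA-seq libraries made from total RNA without rRNA depletion, 1 of wild type and 1 of npl3Δ, which lacks the mRNA-binding guard protein Npl3. No treatment is named for either culture, and both grew at 25 °C and gave 200 ng of total RNA for the library. The study asked how Npl3 takes part in the quality control of rRNA, and the question here is whether mRNAs of the decay machinery differed between the genotypes.

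RNA is removed from either end or after an internal cut. In the nucleus, TRAMP adds short A tails to faulty transcripts and hands them to the exosome with Rrp6, the NRD1 complex ends the transcription of noncoding RNAs, the 5' exonuclease Rat1 degrades from the other end, and the RNase III enzyme Rnt1 cuts hairpins, among them one in the pre-rRNA. In the cytoplasm, most mRNAs lose the poly(A) tail to the CCR4-NOT and PAN complexes, lose the cap to Dcp2 and are then eaten by Xrn1, while the SKI complex feeds mRNAs into the exosome and nonsense-mediated decay removes those with early stop codons.

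The libraries differ in more than NPL3. The targeted gene itself had 1345 counts in wild type against 3 in npl3Δ, which matches the labels. Counts on features other than rRNA summed to 4799318 in wild type against 6674796 in npl3Δ, which is 1.14% and 1.66% of all counts listed. All 6 a-specific mating genes were lower in npl3Δ (median log2 ratio -5.48) and all 4 alpha-specific genes were higher (median 8.72), the pattern of cells of opposite mating type. The 77 genes of chromosome I that were tested had a median 0.98 higher on the log2 scale than that of the remaining genes. Chromosome I was excluded for the 45 decay genes, so none of them lies on it, and they are spread over 13 chromosomes. CCR4, the main deadenylase of CCR4-NOT, lies on chromosome I and is given among the partners further on. The strain behind each library was not named in the sources used here, most strains of the study derive from BY4741, and the deletion cannot be told apart from any other difference between the strains. With 1 library per genotype there is no replicate check, no test was made, and no difference below is shown to belong to the genotype.

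All values below are counts per gene or log2 ratios of npl3Δ over wild type, taken relative to the median gene, which was 1.39 times higher in npl3Δ in raw counts. Square brackets hold 95% exact conditional binomial intervals, which describe counting error alone and not variation between cultures. Reads sequenced without molecular identifiers can be copies of 1 molecule, so the intervals can be too narrow even for counting error. A gene was called higher or lower where it differed at least 1.5-fold and its interval excluded no difference.

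The letters GATGAG form the core of the PAC element and AAAATTTT the core of the RRPE element, both known from genes of ribosome biogenesis. The window ran from 250 bases before the start codon to 50 bases from it, and both strands were read, so that PAC also appears as CTCATC. Among 6001 promoters, 20.4% held PAC, 9.03% held RRPE and 4.38% held both. In the 200 bases printed for each gene (250 to 51 bases before the start codon, genome build R64, in the direction of transcription), capitals mark these letters. DIS3, the catalytic subunit of the exosome, and RNT1 are shown because they carry both elements, as does MPP6, which is not printed, and MTR4, the helicase of TRAMP, because it carries PAC. NMD2, LSM1 and NOT5 are shown because they are the decay genes called higher in npl3Δ, and none of the 3 holds either element.
DIS3, chrXV:285477-285676, minus strand: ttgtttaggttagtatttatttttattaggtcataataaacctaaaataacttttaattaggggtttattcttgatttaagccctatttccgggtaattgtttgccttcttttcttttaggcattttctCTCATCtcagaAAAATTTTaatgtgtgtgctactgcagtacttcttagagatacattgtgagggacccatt
RNT1, chrXIII:749728-749927, minus strand: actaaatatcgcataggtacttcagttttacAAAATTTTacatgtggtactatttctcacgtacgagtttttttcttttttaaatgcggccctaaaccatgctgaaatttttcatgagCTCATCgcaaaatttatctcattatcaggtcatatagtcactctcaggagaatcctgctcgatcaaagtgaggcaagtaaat
MTR4, chrX:342272-342471, plus strand: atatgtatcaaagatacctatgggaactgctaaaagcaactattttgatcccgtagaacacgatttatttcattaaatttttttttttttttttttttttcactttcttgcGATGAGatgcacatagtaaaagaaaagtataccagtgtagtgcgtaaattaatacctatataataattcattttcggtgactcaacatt
NMD2, chrVIII:255807-256006, minus strand: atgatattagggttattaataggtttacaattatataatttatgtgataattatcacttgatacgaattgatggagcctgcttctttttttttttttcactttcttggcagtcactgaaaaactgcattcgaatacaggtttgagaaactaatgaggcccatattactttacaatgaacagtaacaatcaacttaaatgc
LSM1, chrX:187695-187894, minus strand: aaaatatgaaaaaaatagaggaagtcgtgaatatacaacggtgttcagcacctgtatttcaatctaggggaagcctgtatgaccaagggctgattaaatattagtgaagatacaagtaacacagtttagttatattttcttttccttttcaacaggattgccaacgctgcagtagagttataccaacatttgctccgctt
NOT5, chrXVI:689857-690056, plus strand: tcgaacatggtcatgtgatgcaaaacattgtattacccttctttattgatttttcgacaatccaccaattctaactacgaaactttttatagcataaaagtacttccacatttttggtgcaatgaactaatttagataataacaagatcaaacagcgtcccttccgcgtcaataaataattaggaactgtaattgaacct

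In DIS3 the PAC letters begin 121 bases and the RRPE letters 110 bases before the start codon, so the elements nearly touch. In RNT1 PAC begins 132 bases and RRPE 219 bases before the start codon, and in MTR4 PAC begins 139 bases before it. PAC letters were found in 6 of 10 exosome core promoters and in 8 of 14 nuclear ones, against 2 of 21 cytoplasmic ones. These shares are 60%, 57.1% and 9.52%, beside 20.4% of all promoters. The cytoplasmic genes with PAC letters were SKI2, the helicase of the SKI complex, and DHH1, a helicase that activates decapping. RRPE letters were found in 2 of 10 core promoters, 4 of 14 nuclear ones and 4 of 21 cytoplasmic ones, and those of XRN1 and NRD1 lie after the start codon. A match is a description of the letters and not a site of binding.

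**Figure D1:**
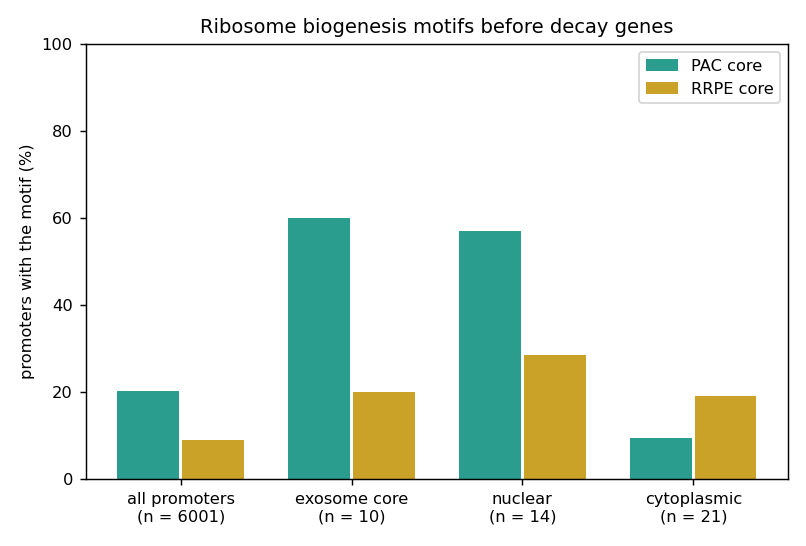
Share of promoters (percent, from 0 to 100) that hold the letters of the PAC core or the RRPE core, for all promoters and for the 3 classes of decay genes. PAC letters stand in 60% of exosome core and 57.1% of nuclear promoters, and in 9.52% of cytoplasmic promoters.

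NMD2, which encodes the nonsense-mediated decay factor also called Upf2, is the only member with an intron. Its intron of 113 nt lies at chrVIII:255638-255750 on the minus strand, after only 6 coding nt. It is printed because NMD2 had the highest ratio of all members, and capitals mark the 5' splice site, the branch point letters TACTAAC, which are followed by 48 nt up to its end, and the last bases of the intron. The deposited counts are per gene and hold no separate value for spliced and unspliced RNA.
NMD2 intron: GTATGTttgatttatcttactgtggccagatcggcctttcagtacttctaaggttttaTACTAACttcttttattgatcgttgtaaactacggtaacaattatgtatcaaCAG

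Most decay genes differed little between the libraries. The members held 14391 counts in wild type against 20513 in npl3Δ, which is 0.30% and 0.31% of all counts outside rRNA. Single members had 61 to 1524 counts in wild type and 76 to 2263 in npl3Δ, so that all 45 passed the minimum of 50 counts in both libraries together. Of these, 3 were called higher, NMD2, LSM1 and NOT5, where 12.5% of the 5448 genes tested were called higher. None was called lower, where 10.4% of all genes tested were. The median log2 ratio of the members was -0.01, and 0 by construction over all genes tested. A counting interval clear of no difference was found for 10 members above it and 11 below it, which is 22.2% and 24.4% of the members, beside 23.4% and 25.4% of all genes tested. The middle part of the members ran from -0.23 to 0.20 between the quartiles, and that of all genes tested from -0.30 to 0.32.

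**Figure D2:**
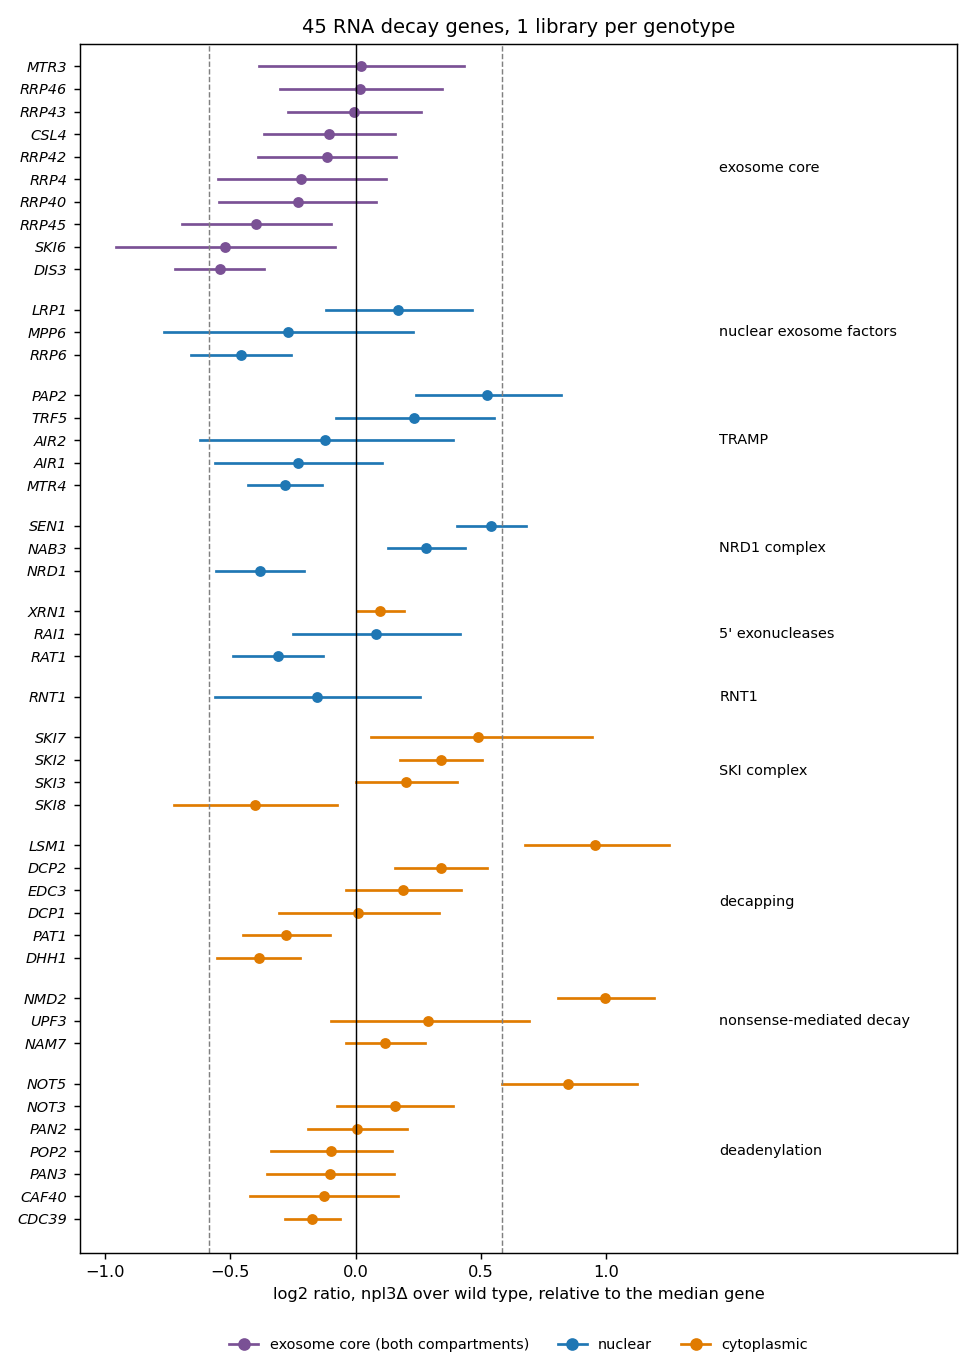
Log2 ratio of npl3Δ over wild type relative to the median gene for each of the 45 decay genes, with 95% counting intervals, grouped by complex and coloured by compartment; dashed lines mark 1.5-fold. Among the points, only those of NMD2, LSM1 and NOT5 lie beyond the dashed lines, and those of the exosome core lie at or left of 0.02.

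The exosome core stood lowest of the 3 classes. It is a barrel of RNA-binding and ring subunits with the nuclease Dis3 at its base. Of its 10 genes, 8 were below the median gene and 2 above it by no more than 0.02, and the median log2 ratio was -0.17. Its summed counts went from 1953 in wild type to 2281 in npl3Δ, a fold of 0.842 [0.792 to 0.894] relative to the median gene. Without DIS3, which holds the most counts of the core, the fold was 0.899 [0.838 to 0.965].

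DIS3 (YOL021C, chrXV:282421-285426) had the lowest ratio of all 45 members. It had 530 counts in wild type against 505 in npl3Δ, a log2 ratio of -0.54 [-0.72 to -0.36]. This size is just inside 1.5-fold, so DIS3 was not called. SKI6 (YGR195W), which encodes the ring subunit also called Rrp41, had 92 and 89 counts, a log2 ratio of -0.52 [-0.96 to -0.08]. RRP45, another ring subunit, had 185 and 195 counts, a log2 ratio of -0.40 [-0.69 to -0.10]. These are the core genes whose intervals lay wholly below the median gene.

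The remaining core genes had intervals that held no difference. The cap subunit RRP40 went from 159 to 188 counts (-0.23 on the log2 scale), and the cap subunit RRP4 from 139 to 166 (-0.22). The ring subunit RRP42 went from 199 to 255 counts (-0.12), and the cap subunit CSL4 from 217 to 280 (-0.11). RRP43 (206 and 285 counts), RRP46 (138 and 194) and MTR3 (88 and 124), all of the ring, lay between -0.01 and 0.02. DIS3 over CSL4 was 0.738 times its wild type quotient (95% interval 0.596 to 0.916, normal approximation on the log scale, as for all quotients below). DIS3 over MTR3 was 0.676 times (0.501 to 0.912). DIS3 has the lowest ratio of the core and MTR3 the highest, so both quotients were bound to lie below 1. Their intervals do not allow for this choice and do not show that the core was uneven.

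The nuclear factors bound to the exosome showed a like spread. RRP6 (YOR001W), the nuclear 3' exonuclease, had 412 counts in wild type against 416 in npl3Δ, a log2 ratio of -0.46 [-0.66 to -0.26]. LRP1, the partner that stabilises Rrp6 and is also called Rrp47, had 162 and 253 counts, a log2 ratio of 0.17 [-0.12 to 0.46]. MPP6, an RNA-binding cofactor, had 66 and 76 counts, a log2 ratio of -0.27 [-0.76 to 0.23]. The quotient of LRP1 over RRP6 was 1.55 times that of wild type (1.22 to 1.97). RRP6 and DIS3, the nucleases of the nuclear exosome, had close ratios, and their quotient was 0.944 times that of wild type (0.786 to 1.13).

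TRAMP is built from a poly(A) polymerase, a zinc-knuckle protein that binds RNA and the helicase Mtr4. MTR4 (YJL050W) had 712 counts in wild type against 813 in npl3Δ, a log2 ratio of -0.28 [-0.43 to -0.13]. PAP2 (YOL115W), the polymerase also called Trf4, had 151 and 302 counts, a log2 ratio of 0.52 [0.24 to 0.82], which was below the fold of a call. PTH4, which converges on PAP2 across a gap of 87 nt, had 10 and 72 counts (2.31 on the log2 scale), and its part in the value of PAP2 was not tested. TRF5, the other polymerase, had 136 and 222 counts, a log2 ratio of 0.23 [-0.08 to 0.55]. The helicase gene was thus below the median gene and the polymerase genes above it, with an interval clear of no difference for MTR4 and PAP2 only.

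The zinc-knuckle genes stayed near the median gene within counting error. AIR1 had 141 counts in wild type against 167 in npl3Δ, a log2 ratio of -0.23 [-0.56 to 0.11]. AIR2, with the fewest wild type counts of any member, had 61 and 78, a log2 ratio of -0.12 [-0.62 to 0.39]. Between the alternative subunits no difference was detectable at this depth: PAP2 over TRF5 was 1.23 times the wild type quotient (0.917 to 1.64), and AIR2 over AIR1 was 1.08 times (0.721 to 1.62). The related pairs can be told apart by sequence, since the longest run they share is 20 nt for PAP2 and TRF5 and 18 nt for AIR1 and AIR2. Summed over its 5 genes, TRAMP had 1201 counts in wild type against 1582 in npl3Δ, a fold of 0.949 [0.880 to 1.02].

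The NRD1 complex held the widest contrast inside any nuclear complex. Nrd1 and Nab3 bind short motifs in the nascent RNA, and the helicase Sen1 dislodges the polymerase. NRD1 (YNL251C) had 517 counts in wild type against 551 in npl3Δ, a log2 ratio of -0.38 [-0.56 to -0.20]. NAB3 (YPL190C) had 548 and 925 counts, a log2 ratio of 0.28 [0.13 to 0.44]. SEN1 (YLR430W) had 648 and 1309 counts, a log2 ratio of 0.54 [0.40 to 0.68]. All 3 intervals were clear of no difference, with NRD1 below the median gene and its partners above it.

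Quotients within the complex do not depend on the scaling of the libraries, and they hold the same contrast. SEN1 over NRD1 was 1.90 times its wild type value (1.63 to 2.21), and NAB3 over NRD1 was 1.58 times (1.35 to 1.86). SEN1 over NAB3 was 1.20 times (1.04 to 1.38). Nrd1 is known to end transcription early on its own gene, so NRD1 is also listed among the substrates further on.

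The nuclear 5' exonuclease gene RAT1 (YOR048C) had 481 counts in wild type against 538 in npl3Δ, a log2 ratio of -0.31 [-0.49 to -0.13]. RAI1, whose product holds Rat1 in its active form, had 128 and 188 counts, a log2 ratio of 0.08 [-0.25 to 0.42]. The cytoplasmic 5' exonuclease gene XRN1 (YGL173C) had 1524 and 2263 counts, the most of any member, and a log2 ratio of 0.10 [0.003 to 0.19]. XRN1 over RAT1 was 1.33 times its wild type quotient (1.16 to 1.53), so the cytoplasmic enzyme gene stood higher than the nuclear one, with an interval that excluded no difference. RNT1 (YMR239C) had 93 and 116 counts, a log2 ratio of -0.16 [-0.56 to 0.26].

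In cytoplasmic decay, the genes called higher came from 3 different steps, and each stood above the other members of its group. NMD2 (YHR077C, chrVIII:252374-255756) had 309 counts in wild type against 856 in npl3Δ. This is a fold of 1.99 [1.75 to 2.28] relative to the median gene. The helicase gene NAM7, also called UPF1, had 546 and 822 counts, a log2 ratio of 0.12 [-0.04 to 0.28]. UPF3, the remaining core factor of nonsense-mediated decay, had 87 and 148 counts, a log2 ratio of 0.29 [-0.10 to 0.69]. NMD2 over NAM7 was 1.84 times its wild type quotient (1.55 to 2.18), and NMD2 over UPF3 was 1.63 times (1.21 to 2.19). NMD2 was picked for its high ratio, so these quotients were bound to exceed 1, and their intervals do not allow for the choice. The same holds for LRP1 over RRP6 above and for the quotients of LSM1, NOT5 and SKI2 below, where a higher ratio stands over a lower one.

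LSM1 (YJL124C, chrX:187126-187644), which gives the cytoplasmic Lsm ring its identity and binds the shortened tail of mRNAs before decapping, had 139 counts in wild type against 375 in npl3Δ. Its fold was 1.94 [1.6 to 2.38]. Other decapping genes lay on both sides of the median gene. DCP2, the decapping enzyme, had 384 and 675 counts, a log2 ratio of 0.34 [0.16 to 0.53]. EDC3, an enhancer of decapping, had 259 and 410 (0.19 on the log2 scale), and DCP1, the activating partner of Dcp2, had 143 and 200 (0.01). The activators PAT1 and DHH1 were lower than the median gene: PAT1 had 509 and 583 counts, a log2 ratio of -0.28 [-0.45 to -0.10], and DHH1 had 591 and 627, a log2 ratio of -0.39 [-0.55 to -0.22]. Pat1 binds the Lsm ring, and LSM1 over PAT1 was 2.36 times its wild type quotient (1.88 to 2.96).

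NOT5 (YPR072W, chrXVI:690107-691789), a subunit of CCR4-NOT that reads ribosomes with an empty site, had 161 counts in wild type against 403 in npl3Δ. Its fold was 1.80 [1.5 to 2.18]. NOT3, its close relative in the complex, had 260 and 402 counts, a log2 ratio of 0.15 [-0.07 to 0.39]. CDC39, the scaffold also called Not1, had 1219 and 1500 counts, a log2 ratio of -0.17 [-0.28 to -0.06]. NOT5 over CDC39 was 2.03 times its wild type quotient (1.67 to 2.48), and NOT5 over NOT3 was 1.62 times (1.27 to 2.06). The deadenylase gene POP2 had 253 and 328 counts (-0.10), CAF40 had 173 and 220 (-0.13), PAN2 had 363 and 506 (0.01) and PAN3 had 232 and 300 (-0.10), and their intervals all held no difference.

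The SKI complex was split. SKI2, its helicase, had 477 counts in wild type against 838 in npl3Δ, a log2 ratio of 0.34 [0.18 to 0.51]. SKI8, a WD-repeat subunit, had 155 and 163 counts, a log2 ratio of -0.40 [-0.73 to -0.07]. SKI7, which joins the complex to the exosome, had 67 and 131 counts, a log2 ratio of 0.49 [0.06 to 0.94], and SKI3, the scaffold, had 331 and 528 (0.20). SKI2 over SKI8 was 1.67 times its wild type quotient (1.31 to 2.14). The gene next to SKI2 on its 5' side, BDF1, reads the same strand 516 nt away and had 505 counts in wild type against 50981 in npl3Δ, and its part in the value of SKI2 was not tested.

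Between compartments, nuclear decay genes stood below cytoplasmic ones in the median, with wide overlap. The 14 nuclear genes had a median log2 ratio of -0.14 (range -0.46 to 0.54), 6 above and 8 below the median gene, and none called. The 21 cytoplasmic genes had a median of 0.12 (range -0.40 to 1.00), 14 above and 7 below, with all 3 calls. Over all genes tested 12.5% were called higher and 10.4% lower, and 3 of 21 is near the first share. The medians differed by -0.26 (nuclear minus cytoplasmic), and by -0.14 both with a minimum of 200 counts and with the core counted as cytoplasmic. In summed counts the nuclear genes went from 4256 to 5954, a fold of 1.01 [0.969 to 1.05], and the cytoplasmic ones from 8182 to 12278, a fold of 1.08 [1.05 to 1.11].

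The difference in summed counts was no longer seen with the called genes left out of the cytoplasmic class. Nuclear over cytoplasmic counts were 0.932 times the wild type quotient (0.888 to 0.978), and without NMD2, LSM1 and NOT5 they were 0.995 times (0.948 to 1.05). The difference of the medians without these genes was -0.19. For the exosome core over the cytoplasmic genes the quotient was 0.778 times that of wild type (0.728 to 0.832), and 0.831 times (0.777 to 0.889) without the called genes, so the lower core counts did not rest on them. These 3 genes were left out after their values were seen, and from the cytoplasmic class alone, so both quotients could only rise. SEN1, the nuclear gene with the highest ratio (648 and 1309 counts), was kept, so the value of 0.995 does not show that the classes were alike. Directions refer to the median gene and depend on the scaling of the libraries. Scaled by the sum of counts outside rRNA, the median of all genes tested was -0.003. Scaled by that sum without ATG26 and BDF1, all genes moved up by 0.24, so these genes weigh heavily in the npl3Δ sum. The nuclear median then became 0.10 and that of the core 0.07, while differences between classes and all quotients stayed as given.

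**Figure D3:**
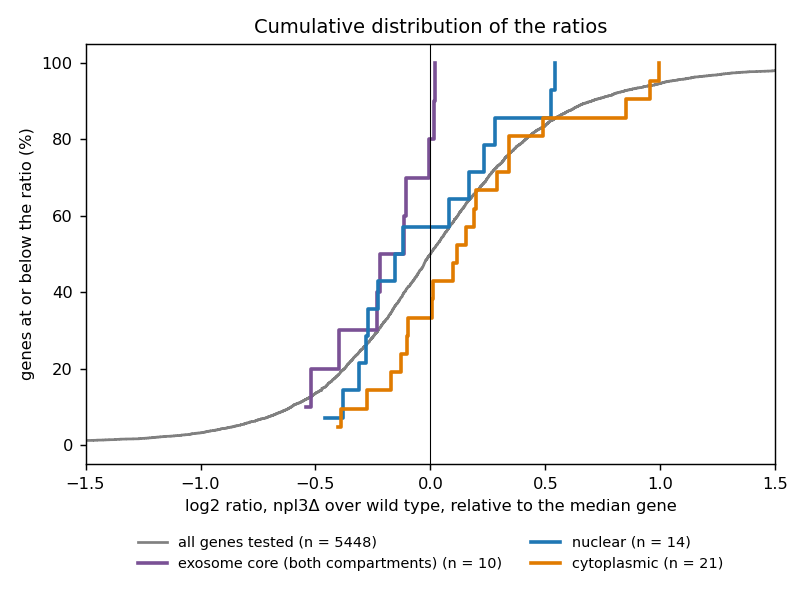
Percent of genes at or below each log2 ratio of npl3Δ over wild type, for all 5448 genes tested, of which those beyond the axis range from -1.5 to 1.5 are not drawn, and for the 3 classes of decay genes. The core curve reaches 100% at 0.02, the nuclear curve ends at 0.54, and the cytoplasmic curve ends at 1.00.

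By complex, nonsense-mediated decay stood highest, with a summed fold of 1.40 [1.29 to 1.51] from 942 and 1826 counts. The NRD1 complex followed with 1.17 [1.10 to 1.24] and the SKI complex with 1.16 [1.07 to 1.26]. Decapping was at 1.02 [0.964 to 1.08], the 5' exonucleases with RAI1 at 1.01 [0.955 to 1.07] and deadenylation at 0.991 [0.942 to 1.04]. The sum for deadenylation leaves out CCR4, which lies on chromosome I. The nuclear exosome factors were at 0.839 [0.754 to 0.934], close to the exosome core. Summed folds are weighted by the gene with the most counts, and in nonsense-mediated decay NMD2 alone accounts for 856 of 1826 counts in npl3Δ.

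Levels between genes were compared as counts per kb of coding length within a library. The decay genes were mostly expressed above the average protein-coding gene: 38 of 45 lay above the median of 5987 protein-coding genes, which was 89.9 counts per kb in wild type against 130 in npl3Δ, and the number was 38 in either library. In wild type DHH1 stood highest with 389 counts per kb, followed by XRN1 with 332 and NRD1 with 299. SKI7 stood lowest with 29.9, followed by AIR2 with 58.9 and RNT1 with 65.7. The same 3 genes were lowest in npl3Δ, with 58.4, 75.4 and 81.9 counts per kb.

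In npl3Δ the highest level was that of LSM1, with 723 counts per kb after 268 in wild type, a move from rank 5 to rank 1. NMD2 moved from rank 38 (94.5 counts per kb) to rank 12 (262), and NOT5 from rank 37 (95.7) to rank 19 (239). DIS3 moved from rank 19 (176 counts per kb) to rank 29 (168), and SKI6 from rank 28 (124) to rank 41 (120). In all, 7 members moved by at least 10 ranks. Over the 45 genes the levels of both libraries had a Spearman rho of 0.847, given as a description across genes that share the same libraries and are not independent replicates.

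In 6 of the 9 complexes with several members the same gene stood highest in both libraries. In the core RRP42 stood highest in both libraries (249 and 320 counts per kb), while the lowest was MTR3 in wild type (117) and SKI6 in npl3Δ (120). In TRAMP MTR4 stood highest (221 and 252) and AIR2 lowest. In the NRD1 complex NRD1 was highest in wild type (299) and NAB3 in npl3Δ (384), with SEN1 lowest in both (96.8 and 195). LRP1 was the highest (292 and 456) and MPP6 the lowest (118 and 135) of the nuclear exosome factors. Among cytoplasmic complexes, POP2 led deadenylation (194 and 252), and the lowest was NOT5 in wild type and PAN3 in npl3Δ (147). In the SKI complex the lead passed from SKI8 (130) to SKI2 (217). DCP2 was lowest in decapping (132 and 232), where DHH1 led in wild type and LSM1 in npl3Δ. NAM7 led nonsense-mediated decay (187 and 282) over UPF3 (74.7 and 127).

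**Figure D4:**
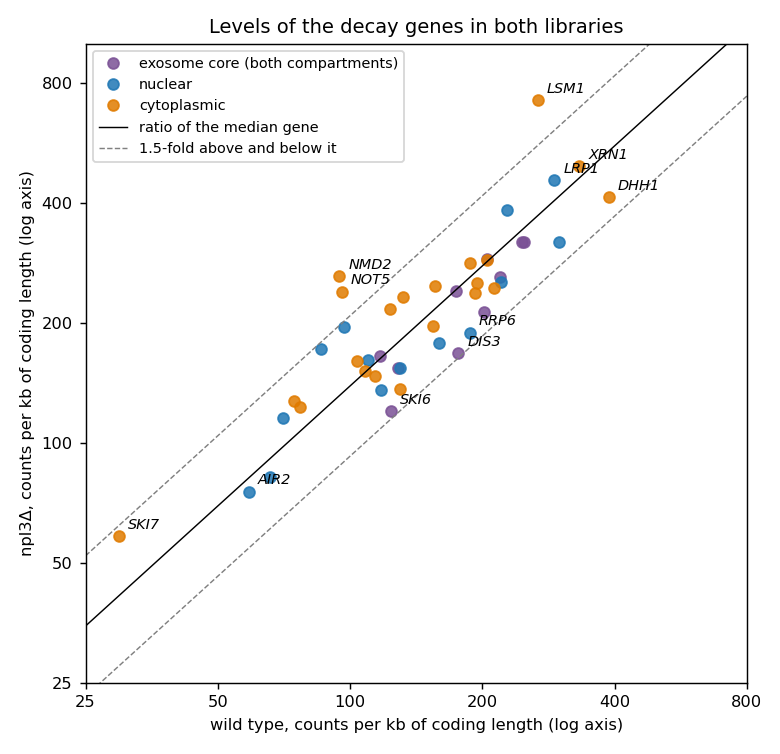
Counts per kb of coding length of the 45 decay genes in wild type (x, log axis) and npl3Δ (y, log axis), coloured by compartment; the solid line is the ratio of the median gene and the dashed lines are 1.5-fold above and below it. LSM1, NMD2 and NOT5 lie above the upper dashed line, and SKI6 and DIS3 lie just above the lower one.

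The called genes were set beside their neighbours on the chromosome. PTC7, a phosphatase gene that converges on NMD2 across a gap of 148 nt, had 116 counts in wild type against 3 in npl3Δ, a log2 ratio of -5.53 [-8.04 to -4.16]. It was 1 of 4 features with at least 100 counts in wild type and 3 or fewer in npl3Δ, the others being NPL3, YDR433W and the mating gene MFA2. PPE1, the next gene on the strand of NMD2, had 31 and 99 counts (1.19 on the log2 scale), while on the 5' side YHR078W had 103 and 134 (-0.09) and IRE1 had 182 and 224 (-0.17). Neighbours of NMD2 thus differed on its 3' side and stayed near the median gene on its 5' side, and their part in the count of NMD2 was not tested.

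For LSM1, the neighbour on the 5' side, MTC1, reads the same strand 359 nt away and had 353 counts in wild type against 627 in npl3Δ, a log2 ratio of 0.36 [0.17 to 0.55]. GCD14, on its 3' side, had 160 and 249 (0.16). For NOT5, YPR071W on the 5' side had 50 and 78 counts (0.16), and LTP1, which converges on NOT5 across 143 nt, had 95 and 179, a log2 ratio of 0.44 [0.07 to 0.82]. The nearest neighbours of LSM1 and NOT5 thus had log2 ratios from 0.16 to 0.44, below those of the members (0.96 and 0.85). One gene further on the 3' side, NIT2 beside LSM1 had 9 and 39 counts, a log2 ratio of 1.58 [0.57 to 2.87], and TKL1 beside NOT5 had 2575 and 1760, a log2 ratio of -1.02 [-1.11 to -0.93]. On the 5' side, ALB1 beside LSM1 was at -0.34 and MED1 beside NOT5 at -0.13. The members' further neighbours thus lay on both sides of the median gene.

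**Figure D5:**
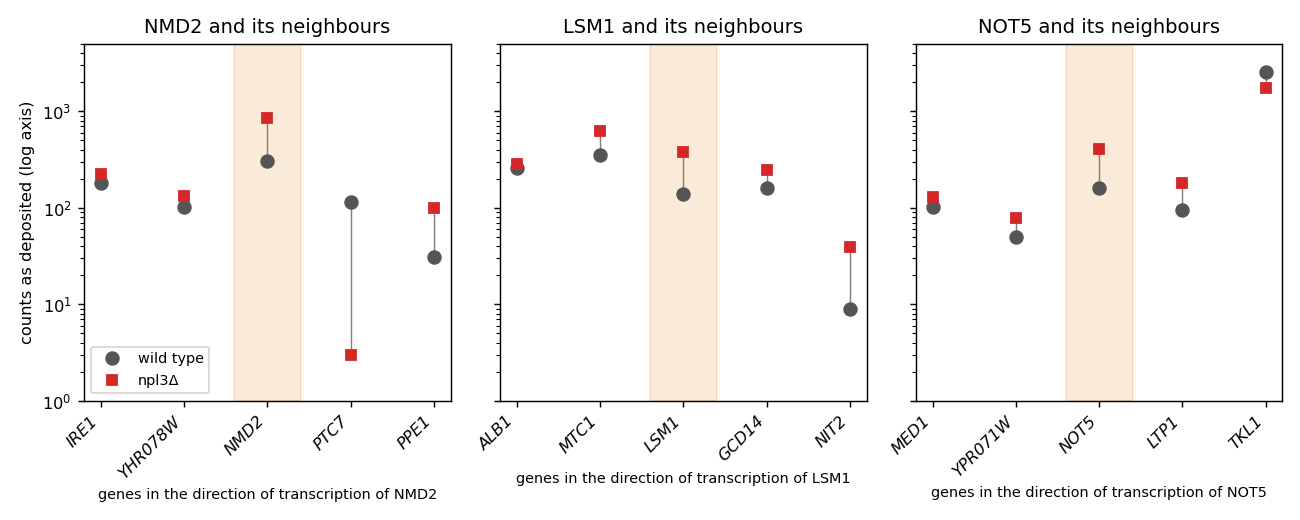
Deposited counts (log axis) in wild type (circles) and npl3Δ (squares) of NMD2, LSM1 and NOT5 (shaded) and of their neighbours on either side, in the direction of transcription of each gene. PTC7 beside NMD2 has 116 counts in wild type against 3 in npl3Δ, while the neighbours shown beside LSM1 and NOT5 have at least 9 counts in each library.

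Partners of the decay genes that are not members also lay around the median gene. Of 26 such genes, 14 were above and 12 below the median gene, the median log2 ratio was 0.04, and 2 were called higher and none lower, beside 12.5% and 10.4% of all genes tested. CCR4, the main deadenylase of CCR4-NOT, had 612 counts in wild type against 1420 in npl3Δ (0.74 on the log2 scale). It lies on chromosome I, whose genes stood 0.98 higher in the median. NOP53, which guides the exosome to pre-ribosomes, had 173 and 371 counts (0.63). The genes of the Lsm ring shared with LSM1, LSM2 to LSM7, lay between -0.45 and 0.25, so none of them stood where LSM1 did.

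Among 12 mRNAs known as targets of these pathways, 11 were below the median gene and 1 above it, with a median log2 ratio of -0.38. Of these, 4 were called lower and none higher, beside 10.4% and 12.5% of all genes tested. They were ADE12 (848 and 149 counts, -2.98) and URA2 (6219 and 3714, -1.22), of purine and pyrimidine synthesis, IMD2 (277 and 220, -0.80), of GTP synthesis, all known for Nrd1-dependent early termination, and CPA1 (215 and 144, -1.05), a target of nonsense-mediated decay with an upstream reading frame. Other targets of the same pathways were not called: URA8, listed for early termination, had 210 and 326 counts (0.16), and EBS1, listed for nonsense-mediated decay, had 281 and 372 (-0.07). HRP1 (-0.38), NRD1 (-0.38), ALR1 (-0.51) and YRA1 (-0.31) were not called either. NRD1 is also a member, and EBS1 is also counted among the partners. BDF2, which is cut by Rnt1, had 603 and 763 counts (-0.13), and RPS28B, whose mRNA is decapped with the help of Edc3, had 143 and 180 (-0.14). For the values of these 12 genes, strain and decay cannot be told apart as sources.

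Members with PAC letters had a median log2 ratio of -0.19 (16 genes) and members without them 0.02. Over all genes the medians were -0.05 with PAC, 0.01 without and -0.10 with both elements, so PAC genes as a whole lay slightly below the rest. Inside the exosome core the order was the other way, -0.16 with PAC and -0.26 without. Coding length and log2 ratio had a Spearman rho of 0.195 over the members, and wild type level per kb and log2 ratio one of -0.355, where both measures share the wild type count.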

How the data were processed

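Per the labels and the paper, reads were aligned by the authors to sacCer3 (R64) using HISAT2, and featureCounts gave counts per feature. Versions, annotation and the handling of strand and of reads with several matches are not given in the sources used here. The deposited values are raw counts per feature, whole numbers without normalization, with a total of 421789474 in wild type against 401753674 in npl3Δ. These totals exceed the reads per sample that the paper states, so shares of counts need not be shares of reads. The deposited coverage of the 35S rRNA was not used. Of 7127 features, 22 for rRNA and 2 inside the 35S rRNA were set aside. Names and coordinates came from RefSeq for the same build (6047 features matched by locus tag, 41 by symbol, 1039 unmatched and kept under their own names). Unmatched features may overlap a member, which was not checked.

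Libraries were scaled by the median ratio over the 5448 genes with at least 50 counts together (factor 1.39), with a pseudocount of 0.5 for log2 ratios. Intervals are 95% Clopper-Pearson, for quotients normal approximations. Every stretch of 50 nt in the members was unique in the genome. Members, classes, gene lists and alternatives were chosen with earlier results of these data known. Named with values were the called members, the 5 highest and 5 lowest ratios, RRP6, TRAMP, the NRD1 complex, RAT1, RAI1, XRN1, RNT1, the highest and lowest level in each complex, and called partners. Further members, neighbours and substrates were added after their values were seen. Promoters and the intron were read from the RefSeq genome. Alternatives concerned scaling (TMM from edgeR 4.0.16 in R 4.3.3 among them), minimum count, fold, pseudocount and class limits. The calculation was tested on simulated data. Software was Python 3.11.15 with pandas 2.3.3, matplotlib 3.10.9, scipy 1.17.1 and numpy 2.4.6.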

Additional observations from a re-analysis of the deposited data

How the results depend on the processing

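No paired analysis was possible because there was 1 library per genotype. No alternative reversed the direction of a called gene, but a fold of 2 removed all calls. Scaling by the sum of counts outside rRNA, by TMM or by genes of middle level and a minimum of 10 counts or none left all class medians, their difference and the counts of calls close to the values reported (counts within 1.5 times). So did a pseudocount of 5 for the medians and their difference, and a call by fold alone for the counts. Scaling by the sum without ATG26 and BDF1 raised the median of all genes by 0.24 and gave 6 members called higher (SEN1 at 0.78, PAP2 at 0.76 and SKI7 at 0.73 in addition), where 22.9% of all genes were called higher and 5.19% lower. The medians were then 0.23 for all members, 0.10 for nuclear, 0.35 for cytoplasmic and 0.071 for core genes. Of 32 named members, 6 changed sign, none with an interval clear of no difference under the median scaling, and 13 left the interval they had there. Intervals shift with the values, so those that ended less than 0.24 below the median gene then held no difference. Among these were MTR4 (-0.04), RAT1 (-0.07), NRD1 (-0.14) and DHH1 (-0.15), while the intervals of DIS3 and RRP6 stayed below no difference. A minimum of 200 counts gave a nuclear median of -0.038 and a difference of the classes of -0.14. A call from 0.32 on the log2 scale gave 8 members higher and 7 lower, beside 20.2% and 20.4% of all genes, and a fold of 2 gave 0 higher, beside 5.32%. The cytoplasmic median was 0.0058 with the core counted as cytoplasmic (difference -0.14) and 0.19 without CCR4-NOT, PAT1 and DHH1 (difference -0.33). Without NMD2, LSM1 and NOT5, chosen after their values were seen, the median of all members was -0.10 and the difference of the classes -0.19. Depth limits the precision: rRNA took all but 1.14% and 1.66% of the counts, and RRP43, at the median wild type count of 206, had an interval from -0.27 to 0.26.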
